A study of Homo sapiens with 4 samples.

Results

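The alpha and beta tubulin isotypes examined here are 10 genes, 4 alpha (TUBA1A, TUBA1B, TUBA1C and TUBA4A) and 6 beta (TUBB, TUBB2A, TUBB2B, TUBB3, TUBB4B and TUBB6). They were taken as every probe that the authors' normalized table annotates with 1 of these symbols, which gave 16 of the 58201 different probes and 10 of the 34755 gene symbols on the array. RNA came from SUM149, a human cell line of inflammatory breast cancer that the study lists as a Basal B line without estrogen receptor, progesterone receptor or ErbB2. The 4 groups were untreated cells and cells after 3, 6 or 12 hours of Ricolinostat (ACY1215) at 2.5 uM, an inhibitor of the deacetylase HDAC6. Each group was 1 two-colour Agilent array, with the sample in Cy5 and a common reference in Cy3 that the labels call a pool of all the SUM149 samples. There were 0 arrays of vehicle-treated cells, so time in culture and handling cannot be told apart from the drug. Each group has a single array, so differences between groups could not be tested, and precision is limited by how few arrays there are.

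Microtubules are hollow polymers of a dimer of 1 alpha and 1 beta tubulin, and cells make both subunits from several genes whose products, the isotypes, differ mostly in their acidic tails. The tails carry many of the enzymatic modifications of tubulin, whereas the lysine of alpha tubulin that HDAC6 deacetylates faces the inside of the polymer. TUBB3 is the beta isotype known from neurons, and its expression in carcinomas is known for its association with resistance to drugs that bind microtubules. Arrays measure RNA, so the acetylation of the protein is outside these data.

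Unless stated otherwise, values below are log2 ratios of Cy5 over Cy3, and a change is the log2 ratio at a time point minus that of untreated cells. Values for Cy5 alone, or the Cy5 channel alone, are differences of the normalized log2 Cy5 intensity. The normalization used both channels to set that intensity, so these values are not independent of Cy3. Each of the 16 tubulin probes passed the scanner software's call for a signal well above background, in Cy5 and in Cy3 of all 4 arrays, had 1 spot per array, and lay outside the damaged areas that covered 3.23% of spots on the untreated array and 4.67%, 0.248% and 0% on the treated arrays in order of time. The error set beside a change is the SD between repeated spots of 300 probes with at least 9 spots, which on the log2 scale was 0.16 at 3 hours and 0.12 at both later times. It covers spotting and scanning only and leaves out the spread between cultures. All 8 epithelial markers, keratins and adhesion genes among them, were well above background on all 4 arrays. Of the receptors reported as negative, PGR was well above background on no array, whereas ESR1 and ERBB2 were on all 4.

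The beta isotypes moved apart under Ricolinostat while the alpha isotypes stayed close together. At 12 hours TUBB2B, TUBB2A and TUBB3 were at least 1.5-fold higher (a log2 change of 0.58 or more) and TUBB6 was at least 1.5-fold lower, while none of the 4 alpha isotypes passed 1.5-fold in either direction. These are 3 and 1 of 10 isotypes, beside 8.09% of all measured genes at least 1.5-fold higher and 5.13% at least 1.5-fold lower at 12 hours. Under median centring of each array in place of loess, TUBA1A, TUBA1B, TUBA1C, TUBB and TUBB6 were at least 1.5-fold lower at that time, 5 isotypes in all, and TUBB3 was not higher by that much. At 6 hours 2 isotypes, TUBB2A and TUBB2B, were at least 1.5-fold higher, beside 9.4% of genes, and 1, TUBB6, was lower, beside 4.42%. At 3 hours 0 of 10 passed 1.5-fold higher, beside 6.87% of genes, and 0 lower, beside 1.96%. Past 2-fold there were 0 isotypes at 3 hours, 1 at 6 hours (TUBB2B) and 2 at 12 hours (TUBB2B and TUBB2A), all higher, beside 1.69%, 2.81% and 2.34% of genes. None was at least 2-fold lower, beside 0.366%, 0.939% and 1.12% of genes. The changes at 12 hours spanned 0.42 over the alpha isotypes, from -0.32 to 0.10, and 2.38 over the beta isotypes, from -0.99 to 1.38.

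**Figure D1:**
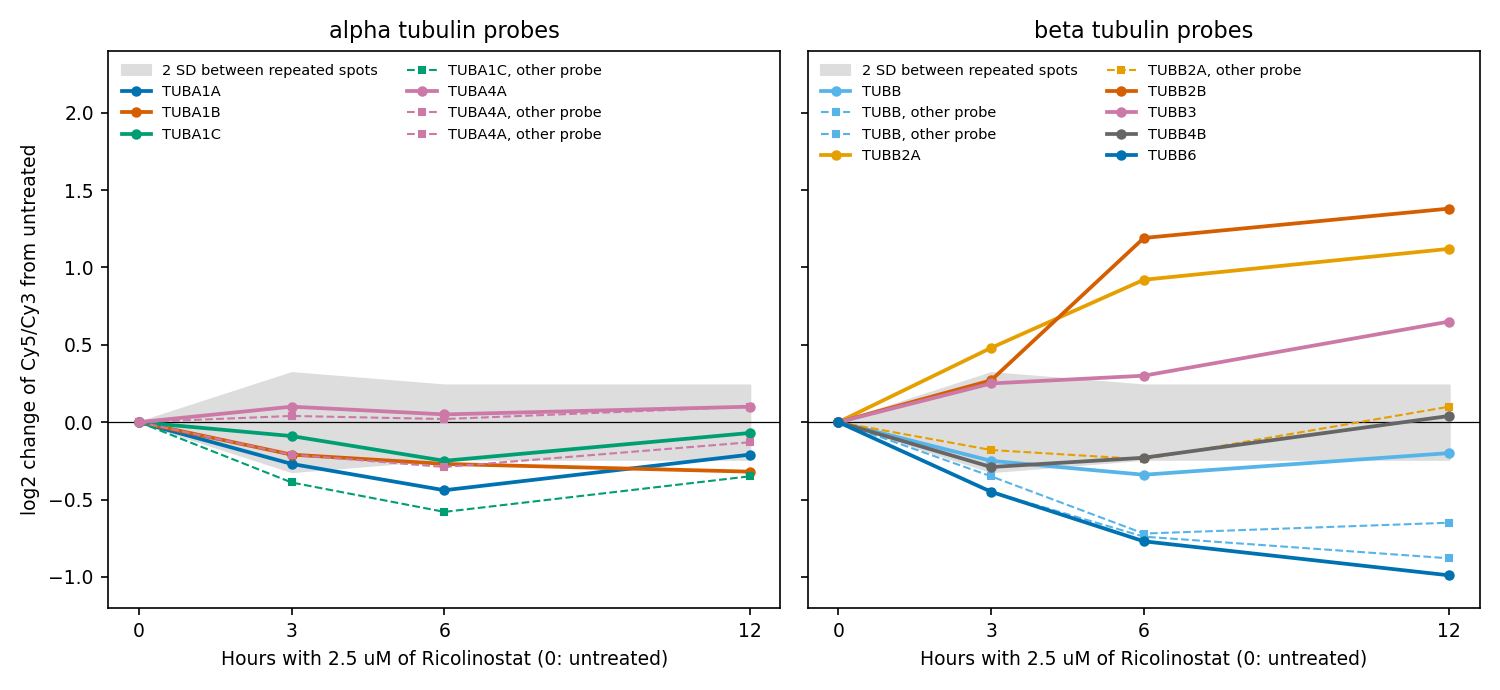
Log2 change of Cy5 over Cy3 from untreated cells (y axis) against hours with 2.5 uM of Ricolinostat (x axis) for the 7 alpha probes on the left and the 9 beta probes on the right. Each line is 1 probe on 1 array per time point, solid for the probe that represents the gene and dashed for its other probes, and the grey band is 2 SD between repeated spots on either side of 0. The beta probes fan out to 1.38 and -0.99 at 12 hours, where the alpha probes lie between 0.10 and -0.35.

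TUBB2A and TUBB2B, closely related beta isotypes that are abundant in brain, had the largest rises. They are neighbouring genes on chromosome 6 with no other coding gene between them in RefSeq. On the brighter TUBB2A probe (A_23_P19291) the log2 ratio was -0.77 in untreated cells and -0.29, 0.15 and 0.35 after 3, 6 and 12 hours. Each array was therefore above the one before, with changes of 0.48, 0.92 and 1.12, the last being 2.17-fold, and 98.4% of the 20478 measured genes had a lower change at 12 hours. The Cy5 channel alone gave 0.48, 0.81 and 0.88. The second TUBB2A probe (A_33_P3365002), annotated to the same transcript, did not show this rise. Its ratio was 0.56, 0.38, 0.32 and 0.66 on the same arrays, which gave changes of -0.18, -0.24 and 0.10. The probes of this gene thus pointed in opposite directions at 3 and 6 hours and lay 1.02 apart at 12 hours, so the rise of TUBB2A rests on 1 of its 2 probes.

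TUBB2B was measured by 1 probe (A_24_P314477), the dimmest of the tubulin probes in Cy5. Its Cy5 signal over local background was 70.0 intensity units in untreated cells, then 113.5, 182.5 and 196.5 units on the 3 treated arrays in order of time. The log2 ratio was -3.55, -3.27, -2.35 and -2.16, which gave changes of 0.27, 1.19 and 1.38, or 1.21-fold, 2.29-fold and 2.61-fold. Most of the rise lay between 3 and 6 hours, and the step from 6 to 12 hours was 0.19. At 12 hours 151 of 20478 genes had a higher change. The size at 12 hours depended on the processing, with 1.62 without background subtraction, 1.77 with a normexp offset of 1, 1.18 with median centring and 1.16 in the Cy5 channel alone. The reference was brighter than the sample for TUBB2B on all 4 arrays, by 2.16 or more on the log2 scale, whereas a mixture of the 4 samples would lie among them if both dyes responded alike. For the 3 probes of TUBA4A the reverse held, with the sample brighter by 1.52 or more on every array. Changes between arrays do not depend on what the reference contains, as long as it was the same on each.

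TUBB3 rose less by 12 hours than TUBB2B and the brighter TUBB2A probe. Its ratio (A_23_P77493) was 0.25 in untreated cells and 0.50, 0.56 and 0.91 with 3, 6 and 12 hours of drug. The 3-hour and 6-hour arrays did not differ beyond the SD between repeated spots, and the 12-hour array was the highest. The changes were 0.25, 0.30 and 0.65 (1.19-fold, 1.23-fold and 1.57-fold), and the Cy5 channel alone gave 0.31, 0.27 and 0.62. TUBB3 exceeded the median change of the 5 other beta isotypes by 0.49, 0.53 and 0.61. It lay between TUBB2A and TUBB2B above it and the remaining beta isotypes below it at 12 hours, where 93.3% of genes had a lower change. The place of TUBB2A holds for its brighter probe only, and the median over its probes, 0.61, was below TUBB3. Centring each array on its median in place of loess, which put the median of all genes at -0.16, gave TUBB3 a 12-hour change of 0.25, below 1.5-fold but still 0.41 above the median of all genes. The other 9 alternatives kept it at least 1.5-fold higher. Those on probes, dim spots and damaged areas could not move it, because its single probe was above background and outside damaged areas.

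TUBB6, a beta isotype of broad expression outside the nervous system, moved the other way. Its ratio (A_23_P254271) was 0.54 in untreated cells, then 0.09, -0.24 and -0.45 on the treated arrays in order of time, each array lower than the one before. The changes were -0.45, -0.77 and -0.99, so that at 12 hours the level was 0.502 times that of untreated cells. Only 236 of 20478 genes had a lower change. In the Cy5 channel alone the 12-hour change was -0.92, and the reference on this probe moved by 0.07. TUBB6 was at least 1.5-fold lower at 6 and 12 hours under all 10 processing alternatives. Here too, the alternatives on probes, dim spots and damaged areas could not move the value, which rests on a single probe.

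The isotypes that rose and TUBB6 drew apart with time. The change of TUBB2B minus that of TUBB6 was 0.73, 1.97 and 2.38 at the successive times, and ranged from 2.08 to 2.83 at 12 hours over the reported setting and its 10 alternatives. For TUBB3 minus TUBB6 the values were 0.70, 1.08 and 1.65, with a range at 12 hours of 1.54 to 1.77. The proportions of these transcripts relative to one another therefore differed between the untreated and the 12-hour array by more than the SD between repeated spots under every one of these settings. The alternatives on probes, dim spots and damaged areas could not move these differences, because TUBB2B, TUBB3 and TUBB6 have a single probe each.

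**Figure D2:**
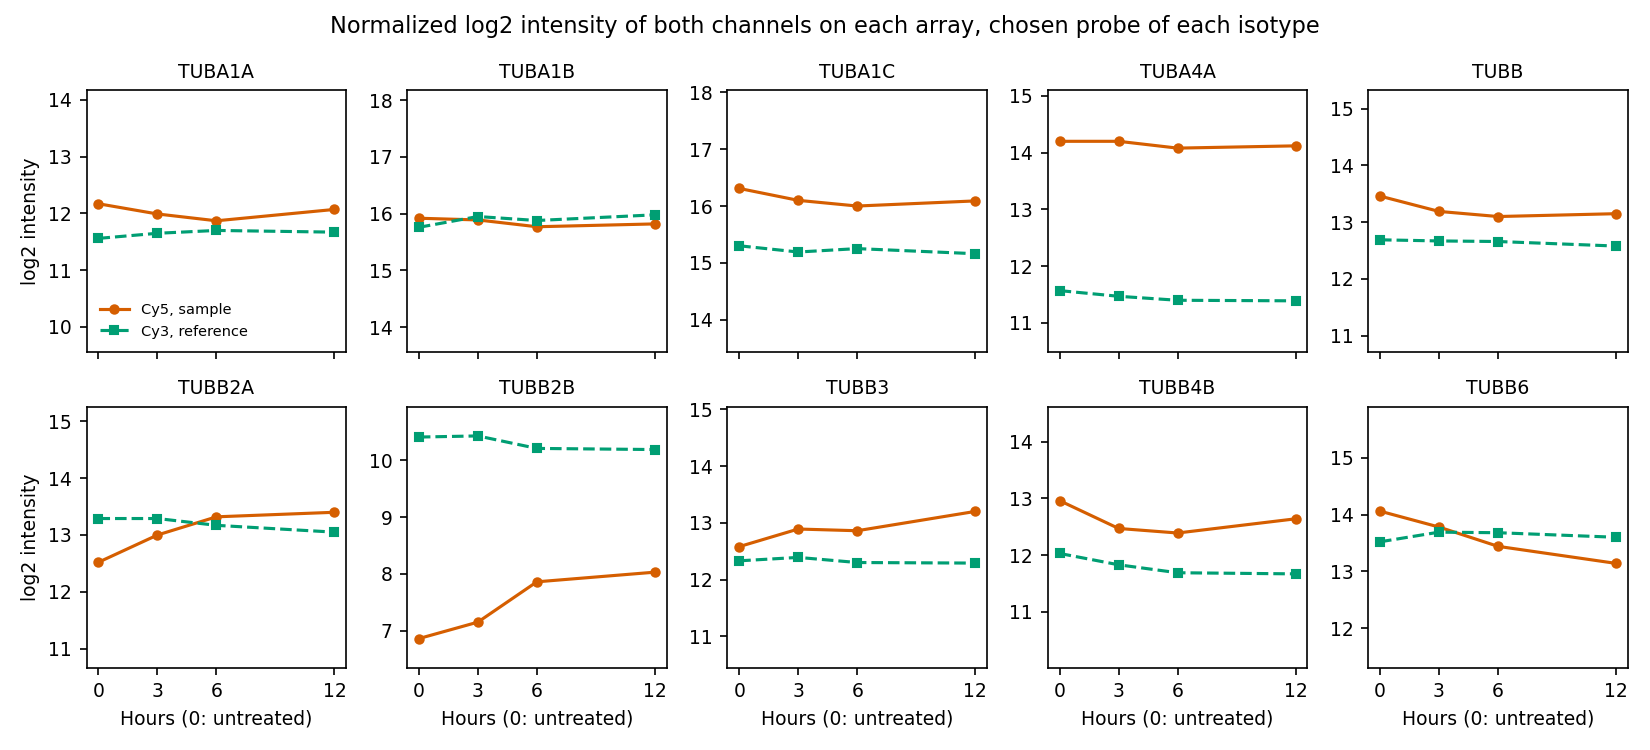
Normalized log2 intensity (y axis) of the sample in Cy5 (circles, solid line) and of the reference in Cy3 (squares, dashed line) on each of the 4 arrays, by hours with Ricolinostat (x axis), for the probe that represents each isotype. Every panel spans the same number of log2 units around its own centre, and panels are not comparable in level because each probe has its own brightness. In Cy5, TUBB2B goes from 6.86 to 8.03 and TUBB6 from 14.06 to 13.14, while the Cy3 line of TUBB4B falls from 12.03 to 11.67.

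The sequences before these 4 genes are shown because they are the isotypes that passed 1.5-fold, in opposite directions. RefSeq's GRCh38.p14 table gave a window of 250 bases before to 50 after a transcript start for all 10 isotypes, 15 windows in all. Capitals mark 3 motifs on both strands. TATAA is the core of a TATA box, a binding site of the basal transcription machinery. The CCAAT motif is bound by the factor NF-Y. The third, TGACG, is one side of a cAMP-response element. The motifs were chosen after the sequences had been seen, and a match is a description of the letters only. The windows are chr6:3157495-3157794 on the minus strand for TUBB2A, chr6:3227604-3227903 on the minus strand for TUBB2B, chr16:89923092-89923391 on the plus strand for TUBB3 and chr18:12307991-12308290 on the plus strand for TUBB6. For TUBB3 and TUBB6 the table has 2 starts each, and the downstream one is shown.
TUBB2A: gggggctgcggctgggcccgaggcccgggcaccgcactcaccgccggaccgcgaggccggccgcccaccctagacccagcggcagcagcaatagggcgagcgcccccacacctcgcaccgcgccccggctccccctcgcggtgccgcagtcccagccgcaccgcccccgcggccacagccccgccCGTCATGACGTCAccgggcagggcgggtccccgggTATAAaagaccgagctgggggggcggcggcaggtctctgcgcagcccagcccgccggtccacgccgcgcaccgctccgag
TUBB2B: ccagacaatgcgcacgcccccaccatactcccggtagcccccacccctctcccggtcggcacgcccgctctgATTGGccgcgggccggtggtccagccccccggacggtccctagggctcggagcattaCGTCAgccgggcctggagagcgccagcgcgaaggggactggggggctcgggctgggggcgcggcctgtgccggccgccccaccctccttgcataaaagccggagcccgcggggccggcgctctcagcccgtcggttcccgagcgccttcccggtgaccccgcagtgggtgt
TUBB3: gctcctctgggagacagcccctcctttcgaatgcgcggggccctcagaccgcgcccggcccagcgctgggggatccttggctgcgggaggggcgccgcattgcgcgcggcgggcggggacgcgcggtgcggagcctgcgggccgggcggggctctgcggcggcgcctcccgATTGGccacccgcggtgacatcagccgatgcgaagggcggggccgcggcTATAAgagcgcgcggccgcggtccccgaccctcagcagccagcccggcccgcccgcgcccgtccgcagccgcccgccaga
TUBB6: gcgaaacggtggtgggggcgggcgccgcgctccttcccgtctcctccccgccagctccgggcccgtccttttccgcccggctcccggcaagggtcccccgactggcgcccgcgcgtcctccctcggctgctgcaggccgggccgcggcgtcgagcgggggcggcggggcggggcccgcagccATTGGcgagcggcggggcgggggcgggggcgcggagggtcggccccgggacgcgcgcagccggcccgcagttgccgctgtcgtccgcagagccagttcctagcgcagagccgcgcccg

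The TUBB2A window holds 3 TGACG matches, of which the last 2 overlap, and 1 TATAA, and that of TUBB2B holds 1 TGACG and 1 CCAAT. No TGACG lies in the printed windows of TUBB3 and TUBB6. TUBB3 has 1 TATAA and 1 CCAAT, and TUBB6 has 1 CCAAT and no TATAA. Among all tubulin windows, TGACG is present in 4 of 15, with TUBB and TUBB4B as the other genes, and in 24.6% of all 35116 windows in the table. TATAA is present in 5 of 15 against 20.4% of all windows, and CCAAT in 9 of 15 against 34.6%. The GC box GGGCGG, not marked in capitals, occurs 5 times in the TUBB2A window, 1 time in that of TUBB2B, 5 times in that of TUBB3 and 6 times in that of TUBB6. It is present in 45% of all windows and in 9 of the 15 of the tubulins.

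TUBB, the beta isotype that dividing cells widely use, was lower at every time on all 3 of its probes, but by different amounts. The brightest probe (A_23_P81912) had ratios of 0.77, 0.52, 0.43 and 0.57, and changes of -0.25, -0.34 and -0.20. The probe annotated to another transcript (A_33_P3312258) changed by -0.35, -0.72 and -0.65. The third (A_23_P387057), annotated to the same transcript as the first, changed by -0.45, -0.74 and -0.88, from a ratio of 0.66 in untreated cells to -0.22 at 12 hours. The gene is represented by the brightest probe and so does not count as changed, whereas the other two passed 1.5-fold lower at 6 and 12 hours. The spread between its probes at 12 hours was 0.68.

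TUBB4B, another widely expressed beta isotype, had ratios of 0.93 in untreated cells, 0.64 after 3 hours, 0.70 after 6 and 0.97 after 12. Its changes were -0.29, -0.23 and 0.04. In Cy5 alone they were -0.49, -0.57 and -0.32, since the reference on this probe moved by -0.20, -0.34 and -0.36, the most of the 16 tubulin probes at 6 and 12 hours. The direction at 12 hours therefore depended on the channel used.

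Among the alpha isotypes, TUBA1A, TUBA1B and TUBA1C were lower than in untreated cells at every time and under each of the 10 alternatives, by less than 1.5-fold except under median centring at 6 and 12 hours. These 3 genes lie side by side on chromosome 12, and TUBA1B and TUBA1C encode alpha tubulins of nearly all cell types, while TUBA1A is known for its role in developing neurons. TUBA1A had ratios of 0.61, 0.34, 0.18 and 0.40 and changes of -0.27, -0.44 and -0.21. TUBA1B had ratios of 0.15, -0.05, -0.11 and -0.17, lower on each array than on the one before, and changes of -0.21, -0.27 and -0.32. The brighter TUBA1C probe (A_24_P188071) had ratios of 1.0, 0.91, 0.75 and 0.93 and changes of -0.09, -0.25 and -0.07. Its second probe (A_24_P58529) changed by -0.39, -0.58 and -0.35, the lowest values of any alpha probe. For TUBA1A and both TUBA1C probes the 6-hour array was the lowest, and the 12-hour array had returned part of the way.

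TUBA4A, an alpha isotype abundant in platelets and muscle, changed little. On its brightest probe (A_23_P154065) the ratio was 2.63 in untreated cells and 2.73, 2.68 and 2.73 with Ricolinostat, with changes of 0.10, 0.05 and 0.10, each below the SD between repeated spots. A second probe (A_23_P102109) gave 0.04, 0.02 and 0.10, and the third (A_23_P84448) -0.21, -0.29 and -0.13. The direction for TUBA4A at 12 hours turned negative under median centring (-0.33) and in the Cy5 channel alone (-0.08).

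The median change of the 4 alpha isotypes was -0.15, -0.26 and -0.14 at the successive times. That of the 6 beta isotypes was 0.00, 0.04 and 0.35, against a median of all measured genes of 0.01, 0.02 and 0.01. The beta median exceeded the alpha median by 0.15, 0.30 and 0.49, although at 12 hours the lowest beta isotype lay below every alpha isotype and 3 beta isotypes lay above every alpha isotype. A median therefore describes the beta group poorly. Over single probes, 2 of 7 alpha probes and 5 of 9 beta probes were above 0 at 12 hours. Median centring put the alpha median at -0.62 and the beta median at -0.07 at 12 hours. Relative to the median of all genes in that setting, TUBA1B was at -0.72, TUBB6 at -1.32 and TUBB2B at 1.34.

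**Figure D3:**
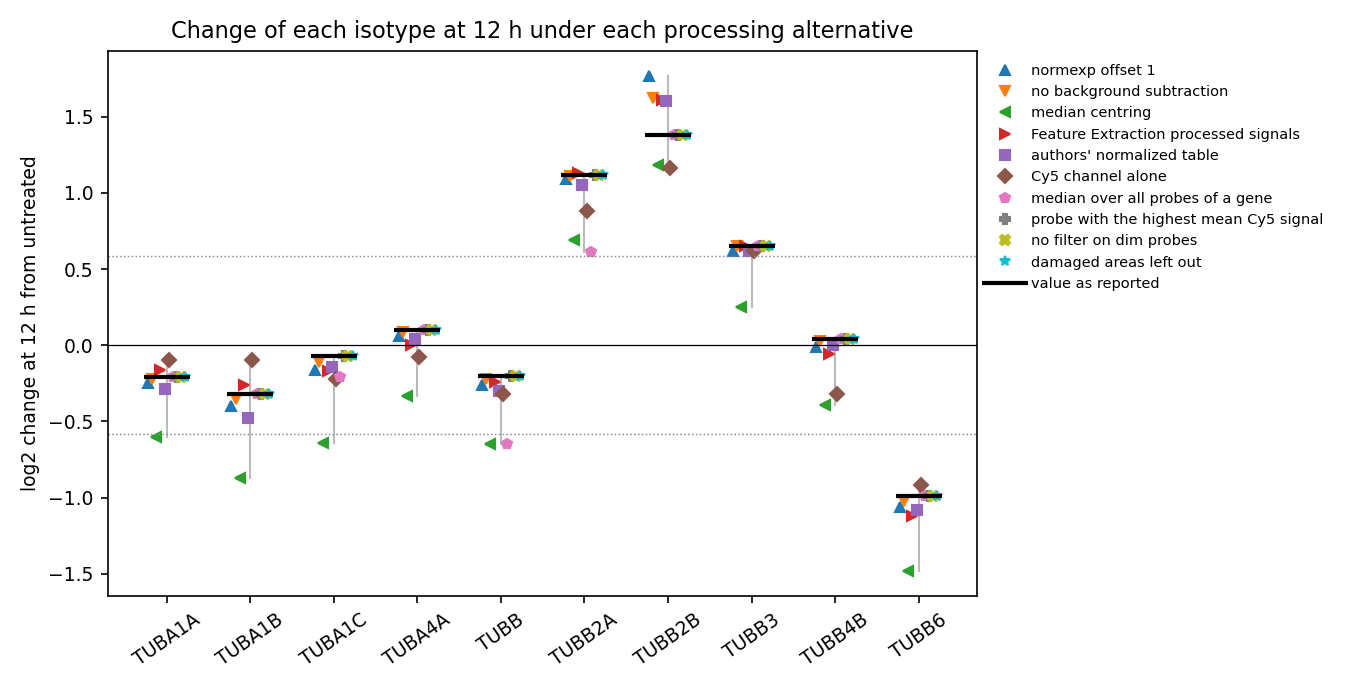
Log2 change at 12 hours from untreated cells (y axis) for each isotype (x axis) under the reported setting (black bar) and each of 10 processing alternatives (symbols), with dotted lines at 1.5-fold. TUBB2A and TUBB2B stay above the upper line and TUBB6 below the lower one in every setting, whereas TUBB3 drops to 0.25 with median centring and TUBA4A and TUBB4B have values on both sides of 0.

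Each value rests on probes whose sequences were not used here, so cross-hybridization among these very similar genes was not tested.

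The genes whose time course was most like that of TUBB3, by the Euclidean distance over the 3 changes among 19891 genes measured on all arrays, were PHLDA2 (distance 0.014), LOC102723465 (0.0257) and STC1 (0.045). PHLDA2, which encodes a small protein of the pleckstrin homology family, changed by 0.24, 0.31 and 0.66. STC1, which encodes the secreted glycoprotein stanniocalcin, changed by 0.26, 0.33 and 0.69. The likeness rests on 3 values per gene. All 3 distances are smaller than the SD between repeated spots of a single change, 0.12 to 0.16, so the order of such near genes is not resolved.

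The other alpha and beta tubulin genes on the array did not share the rise. Of 8 listed, 6 were measured (TUBA3C, TUBA3D, TUBA8, TUBAL3, TUBB4A and TUBB8), their changes at 12 hours lay between -0.13 and 0.21, and 0 passed 1.5-fold at any time. TUBB4A, a beta isotype of the nervous system, had the largest 12-hour change of these at 0.21. TUBB1, the beta isotype of platelets, was well above background on no array. TUBB4A and TUBAL3 were also dim, with a log2 Cy5 in untreated cells of 6.4 and 6.31 against 5.8 for TUBB1. The normexp offset shrinks changes of such dim probes, so the lack of a rise is less certain for them. Of 13 genes for gamma, delta and epsilon tubulin and the gamma-tubulin ring complex, which nucleates microtubules, 12 were measured with a median of -0.12 at 12 hours. TUBGCP4 at -0.74 and TUBGCP5 at -0.71, both subunits of that complex, were at least 1.5-fold lower, and 0 were higher, beside 5.13% and 8.09% of all genes. In Cy5 alone they changed by -0.38 and -0.78, so TUBGCP4 did not pass 1.5-fold there. Of 21 genes for tubulin folding, the chaperonin, prefoldin and tubulin cofactors, 20 were measured with a median of 0.04 and 0 past 1.5-fold at 12 hours. TCP1, a chaperonin subunit, had the largest change there at 0.48 (0.23 in Cy5 alone).

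Among 20 of 24 measured enzymes that modify tubulin, the median at 12 hours was -0.03, 3 were at least 1.5-fold higher and 0 lower, beside 8.09% and 5.13% of all genes. TTLL7, a polyglutamylase that prefers beta tubulin, changed by 0.36, 0.70 and 1.01, and by 0.24, 0.62 and 0.98 on its second probe. HDAC6, the target of Ricolinostat, changed by -0.41, -0.25 and -0.51 on the brighter of its 2 probes (-0.31, -0.49 and -0.67 in Cy5 alone). Its other probe is not reported here, so these values rest on 1 probe. ATAT1, the acetyltransferase of alpha tubulin, changed by 1.36, 0.88 and 0.72 on 1 probe, whose 3-hour value involves a damaged area and was -0.85 in Cy5 alone, and by 0.03, 0.11 and 0.11 on the other. Proteins that bind microtubules had the higher median, 0.24 over 27 of 29 measured, with 6 at least 1.5-fold higher and 0 lower at 12 hours, beside the same 8.09% and 5.13% of all genes. The 2 past 2-fold were TPPP, a tubulin polymerization-promoting protein, at 1.15, 2.28 and 2.35 (0.26, 2.29 and 2.26 in Cy5 alone), and MAPRE2, which follows growing microtubule ends, at 0.61, 0.84 and 1.04 (0.44, 1.13 and 1.44 in Cy5 alone).

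Because TUBB3 and TUBB2B are best known from neurons, 12 neuronal genes were read on the same arrays. Only 5 were measured (MAP2, NEFL, INA, SNAP25 and RBFOX3), and NEFM, STMN2, ELAVL3, ELAVL4 and GAP43 were well above background on no array. The median of the 5 was 0.11, 0.33 and 0.52 in order of time, and 2 were at least 1.5-fold higher at 12 hours, beside 8.09% of all genes. MAP2, which stabilizes microtubules in dendrites, changed by 0.11, 0.89 and 1.27 on 1 probe, and its other probe was not well above background on any array. The log2 of the summed Cy5 intensity of the 12 genes went from 11.1 in untreated cells to 11.1, 11.3 and 11.4, and the part of this list in the change of TUBB3 was not tested. The epithelial markers had a median of 0.32 at 12 hours and a summed level of 16.4, 16.5, 16.5 and 16.9, and CDH1, which encodes E-cadherin, changed by 0.69, 1.03 and 1.32. At 12 hours, when TUBB3 was highest, 4 of the 5 measured neuronal genes and 6 of the 8 epithelial markers had a change above 0, beside 10744 of 20478 genes.

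**Figure D4:**
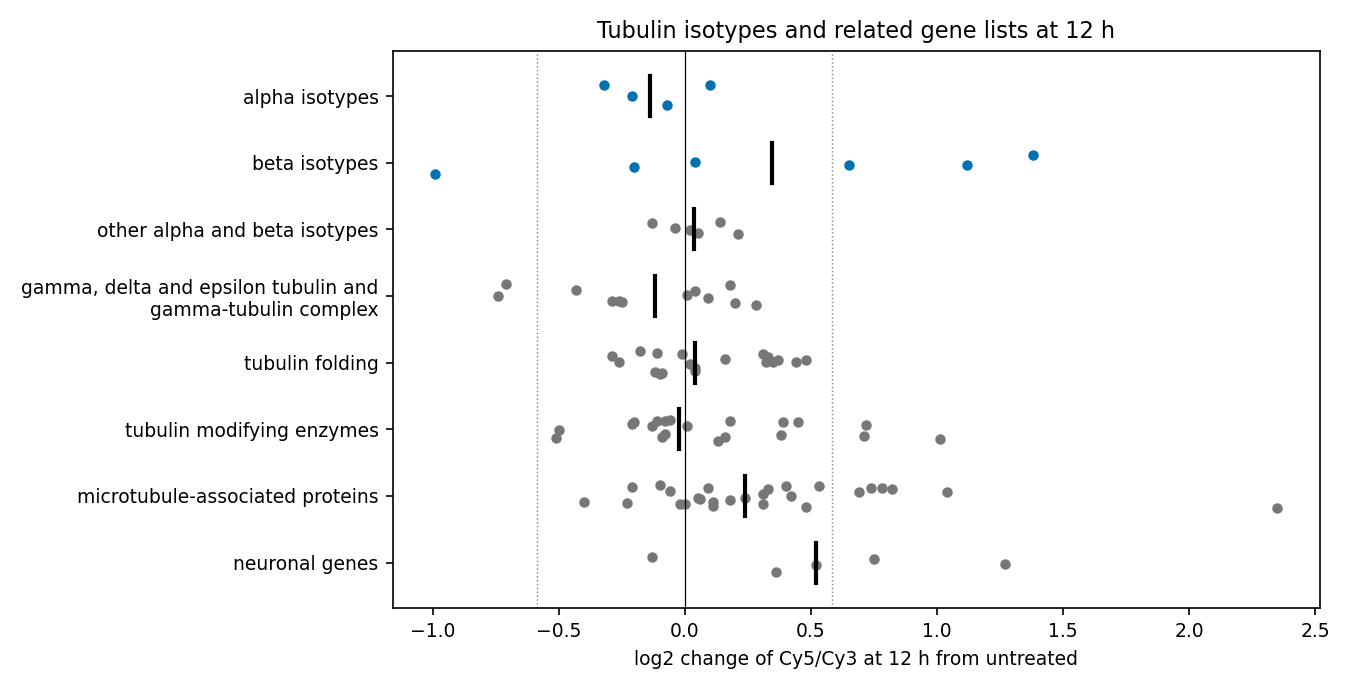
Log2 change of Cy5 over Cy3 at 12 hours from untreated cells (x axis) for the measured genes of each list (y axis), with tubulin isotypes in blue, other lists in grey, a black bar at each list's median and dotted lines at 1.5-fold. The beta isotypes spread from -0.99 to 1.38 around a median of 0.35, the other isotypes stay within -0.13 and 0.21, and TPPP stands at 2.35 among the microtubule-associated proteins.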

How the data were processed

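RNA of 1 array per group was measured. The authors deposited, for each array, spot intensity and background from Agilent Feature Extraction 12.0.1.1 (protocol GE2_1200_Jun14, GRCh37 design) with its log10 ratio of Cy5 over Cy3, and a table of normalized log2 ratios whose method is not given in the sources used here. Columns of sample values left unused numbered 0.

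From median spot signals, background was corrected with normexp (offset 50), control spots (2075 of 62976) were removed, outlier spots set aside, and arrays normalized by loess and Aquantile in limma 3.58.1 (R 4.3.3), a step tested on simulated data. No spot was saturated. Median Cy5 signals were 36.0 to 40.0 over a background of 24.0. Where a gene had several probes, the one brightest in Cy3 on average stood for it. A gene counted as measured when both dyes on the treated and the untreated array were well above background. The normexp offset shrinks changes of dim probes, so the shares of all genes past each fold depend on it. Ranks among all genes were not recomputed with another offset. Tables were made in Python 3.11.15.

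Members and lists were chosen with earlier results of these data known. Of 128 listed symbols 125 matched, 1 by an older symbol. Named genes are all members, HDAC6, list genes past 2-fold at any time (otherwise the largest 12-hour change) and the 3 nearest to TUBB3. TUBB4A, TUBB1, TUBGCP4, TUBGCP5, KATNA1, ESR1, ERBB2, PGR and the detected or undetected list genes were named after their values were seen. Alternatives covered background, scaling, channel, probes, dim spots and damaged areas, defined from Cy3 deviations and outlier flags.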

Additional observations from a re-analysis of the deposited data

How the results depend on the processing

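No paired analysis was possible because there is only 1 sample in every group. Over 10 alternatives, 247 of 300 isotype values moved by less than the SD between repeated spots, 53 moved by more, and 0 of those past 1.5-fold changed sign. Leaving out the dim-probe filter, leaving out damaged areas and choosing probes by Cy5 could not move any isotype value, median or count. Every tubulin probe passed those filters, and the same probes were brightest in both channels. Each of these settings accounts for 30 of the 247. Taking the median over all probes likewise could not move TUBA1A, TUBA1B, TUBB2B, TUBB3, TUBB4B and TUBB6, which have 1 probe each. Median centring moved 19 isotype values and the Cy5 channel alone 14. Of 180 medians and counts 159 stayed and 21 moved. The 159 include every median and count under the settings on dim probes, damaged areas and probe choice by Cy5, which could not move. Median centring gave an alpha median of -0.59 at 6 hours and -0.62 at 12 hours, a beta median of -0.21 and -0.07, 5 isotypes at least 1.5-fold lower at each of these times, 1 at least 2-fold lower at each, and 1 at least 2-fold higher at 12 hours. In that setting 4.14% of genes were at least 1.5-fold higher and 13.9% lower at 12 hours, against 8.09% and 5.13% as reported. The Cy5 channel alone gave 0 isotypes at least 2-fold higher at 6 hours, 1 at 12 hours, and a beta median of 0.15 at 12 hours. The median over all probes of a gene gave 1 isotype at least 1.5-fold higher at 6 hours, 2 at least 1.5-fold lower at 6 and at 12 hours, and 1 at least 2-fold higher at 12 hours, because it averages the discordant TUBB2A and TUBB probes. Feature Extraction's processed signals put 1 isotype at least 1.5-fold higher at 3 hours. At 12 hours 1 isotype, TUBB6, was at least 2-fold lower with a normexp offset of 1, without background subtraction, with the processed signals and in the authors' table. Apart from the averaging of probes, the cause was not tested. Precision is limited by the lone array at each time, by the disagreement between probes of TUBB2A and TUBB, and for TUBB2B by its low signal.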
